A study of Mus musculus with 12 samples.

Results

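The genes described here are 37 genes of the blood vessel lining, the endothelium, measured in mouse brown adipose tissue. They were chosen by platform gene symbol and comprise 7 transcription factors, among them the SoxF factors Sox7, Sox17 and Sox18, and 30 receptors, junction proteins and other vascular genes. Of the 37 genes, 36 had at least 1 named probe and 28 were detected well enough to be tested, out of 8035 genes tested in all. Brown fat was taken at an age of 3 months from mice on the C57Bl/6N background, in 2 groups of 6. One group was wild type (WT) and the other carried the genotype SIRT1Tg/Tg (SIRT1tg), by its notation homozygous for a transgene of SIRT1, an NAD+-dependent deacetylase. The promoter of the transgene, the treatment and housing of the mice, and whether each sample came from its own animal are not given in the sources used here. The p-values therefore measure the spread between these samples.

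Endothelial cells line the capillaries that carry oxygen, fuel and heat through brown fat. ETS factors such as Ets1 and Erg and the SoxF factors, which bind DNA through a high mobility group box, control genes of endothelial identity and of vessel growth. Kdr and Flt1 are receptors for vascular endothelial growth factor (VEGF). Tek and Tie1 form the angiopoietin receptor system, and the phosphatase Ptprb (VE-PTP) acts on Tek and on the junction protein Cdh5. In whole tissue, a higher or lower signal from more or fewer cells of a type cannot be told apart from more or less RNA per cell.

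The gene whose dose was changed served as a check of the labels. Sirt1 read between 6.43 and 7.26 on the WT arrays and between 7.96 and 8.58 on the SIRT1tg arrays on the normalised log2 scale. Each array detected between 11221 and 12108 of 25697 probes, and any pair of arrays correlated across genes at r between 0.959 and 0.990. The column names of the deposited signals carry a number whose meaning is not given, and they fall into low and high numbers, called ranges here, with 3 arrays of each group in both. Arrays are named here by group in the order of that number, so that arrays 1 to 3 of a group lie in the low range. It says nothing about the replicate numbers in the labels.

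The defining endothelial markers were present, with exceptions. Cdh5 (VE-cadherin), Pecam1, Tek and Tie1 were detected on 12 of 12 arrays. The probe of Kdr was detected on 0 of 12 arrays, and so were the probes of Clec14a, a lectin of endothelial cells, and of Erg. Tal1, a factor shared by blood and vessel progenitors, was detected on 1 WT and 2 SIRT1tg arrays. Flt4, the VEGF receptor of lymphatic vessels, was detected on 3 WT and 0 SIRT1tg arrays, and the Notch ligand Dll4 on 2 and 3. The sphingosine receptor S1pr1 and Myct1, a membrane protein of endothelium, were each detected on 0 WT arrays and 1 SIRT1tg array. These 8 genes were not tested. Cldn5, a tight junction protein, had no named probe and was not analysed here. A probe below background does not show that its gene was silent: the probe of Fabp4, a fatty acid binding protein abundant in adipocytes, was also detected on only 3 arrays of each group. Of the 28 tested genes, 25 were detected on all 12 arrays, and Lyl1, Lyve1 and Acvrl1 on 10, 10 and 7.

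Sequence upstream of the annotated transcription start was at hand for 20 of the 37 genes in RefSeq's promoter table (mouse build GRCm38.p6), and the table did not match the other 17 by symbol. Among the genes with an unadjusted p under 0.05 in the comparison below, Flt1, Aqp1, Robo4 and Notch4 were in it. Their 250 bases before the start are shown because they belong to the group of higher genes. They are written 5′ to 3′ in the direction of the gene, and capitals mark matches on either strand to any of 5 motifs. The motif searched for SOX factors was AACAAT. For ETS factors AGGAAG was searched, and also the letters CCGGAA. The GATA motif was TGATAA, and the E-box was CAGCTG. No match overlapped another in these windows.
Robo4, chr9:37401722-37401971, plus strand: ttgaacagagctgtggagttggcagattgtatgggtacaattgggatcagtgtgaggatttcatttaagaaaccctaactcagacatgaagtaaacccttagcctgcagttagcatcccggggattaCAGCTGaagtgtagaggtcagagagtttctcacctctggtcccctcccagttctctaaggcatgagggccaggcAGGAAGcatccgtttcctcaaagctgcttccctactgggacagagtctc
Notch4, chr17:34564045-34564294, plus strand: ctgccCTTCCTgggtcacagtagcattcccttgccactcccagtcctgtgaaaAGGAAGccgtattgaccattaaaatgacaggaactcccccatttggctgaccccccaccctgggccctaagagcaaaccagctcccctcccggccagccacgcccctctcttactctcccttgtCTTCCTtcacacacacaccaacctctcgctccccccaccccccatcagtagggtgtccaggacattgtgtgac
Flt1, chr5:147726012-147726261, minus strand: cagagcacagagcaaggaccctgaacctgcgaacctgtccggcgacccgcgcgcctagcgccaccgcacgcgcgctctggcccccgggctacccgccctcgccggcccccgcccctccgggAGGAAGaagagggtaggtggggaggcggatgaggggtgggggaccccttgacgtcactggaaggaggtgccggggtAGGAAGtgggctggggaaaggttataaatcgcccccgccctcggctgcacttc
Aqp1, chr6:55336049-55336298, plus strand: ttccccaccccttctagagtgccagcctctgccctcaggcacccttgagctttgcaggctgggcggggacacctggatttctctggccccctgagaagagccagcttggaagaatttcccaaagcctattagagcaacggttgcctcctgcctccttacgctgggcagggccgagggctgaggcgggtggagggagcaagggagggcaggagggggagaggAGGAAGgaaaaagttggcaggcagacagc

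Each of these 4 windows held the ETS letters AGGAAG or their reverse complement, once in Robo4 and Aqp1 and at 2 and 3 places in Flt1 and Notch4. Over the 25 windows of the 20 matched genes, some genes having several starts, 12 held AGGAAG, while 29.5% of all 32851 windows of this length did. CCGGAA was in 2 of the 25 windows against 12% of all, the SOX letters AACAAT in 3 against 9.4%, TGATAA in 1 against 7.9% and CAGCTG in 2 against 13.0%. None of the 4 windows shown held AACAAT. A match describes the letters of a short window and not a bound site.

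In the comparison of SIRT1tg with WT brown fat, most of the tested endothelial genes read higher in SIRT1tg. The fold change was above 0 for 22 of 28 genes, where 47% of all genes tested were above 0. The median log2 fold change was 0.14 against -0.01 over all genes. For the endothelial markers Cdh5, Pecam1, Tek and Tie1 alone the median was 0.05, with 2 higher and 2 lower. Of the 28 genes, 9 had an unadjusted p under 0.05, all higher in SIRT1tg, where 7.6% of all genes were higher and 7.63% lower at that level, 15.2% together. They were Sox18, Sox17, Tmem204, Ptprb, Notch4, Robo4, Esam, Aqp1 and Flt1, between 1.21-fold and 1.55-fold higher. In limma, 0 of the 28 had an adjusted p under 0.05 (Benjamini-Hochberg, over all genes tested), while 0.149% of all genes did. The adjusted p of the 9 genes lay between 0.0541 and 0.305. With the number range of the columns as a block, Tmem204, Sox17 and Sox18 rose, which is 10.7% of the 28, where 1.05% of all genes passed and 0.672% rose. These genes were chosen with earlier results of the same arrays known, so their shares are a description.

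**Figure D1:**
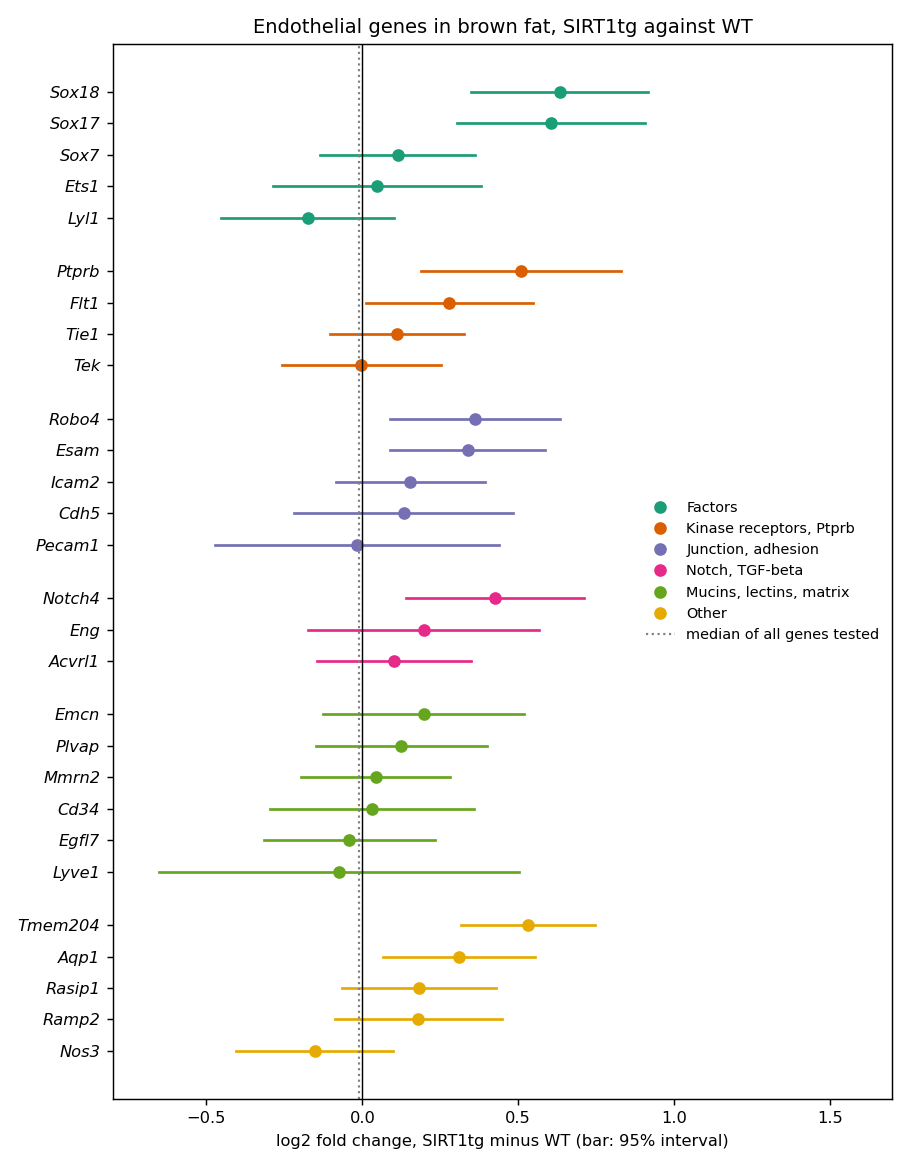
Log2 fold change (SIRT1tg minus WT, points) with the 95% interval of the limma fit (bars) for the 28 tested endothelial genes, coloured by role; the dotted line is the median of all genes tested (-0.01). Sox18, Sox17, Tmem204 and Ptprb lie furthest to the right, while Tek, Pecam1, Egfl7 and Ets1 are among those that lie within 0.05 of 0.

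Among the transcription factors, Sox18 separated the groups. Sox18, mutations of which disturb blood and lymph vessel development in mice, read 7.64 at the lowest, 7.76 at the median and 7.93 at the highest WT array. On the SIRT1tg arrays it read 8.10, 8.29 and 8.83. Every SIRT1tg array lay above every WT array, and SIRT1tg 1 and 3 lay well above the other SIRT1tg arrays. The log2 fold change was 0.63 ± 0.13 (SE), 1.55-fold, with an adjusted p of 0.0585 from limma and an exact two-sided permutation p of 0.00216, the smallest that the 924 splits of 6 against 6 can give. With the number range as a block its adjusted p was 0.0461. Within the ranges it was higher by 0.90 (low) and by 0.36 (high), and the interaction of genotype and range had an unadjusted p of 0.0368 and an adjusted p of 0.656 in limma's fit.

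Sox17, which acts in arterial endothelium and in endoderm, read 5.42, 5.75 and 6.17 (lowest, median and highest) in WT and 6.11, 6.30 and 6.68 in SIRT1tg. The groups overlapped through WT 1 alone, which lay above SIRT1tg 4 and 5. The log2 fold change was 0.61 ± 0.14 (SE), 1.52-fold (adjusted p = 0.0670 in limma, exact permutation p = 0.00649, 6 against 6). The size depended on the background step, at 0.37 with the normexp correction and 0.27 without correction. It was 0.59 in the low and 0.62 in the high number range, and the adjusted p was 0.0382 with the range as a block. A further Sox17 probe, dimmer than the one tested, gave 0.62 ± 0.13. On that probe WT lay between 4.95 and 5.17 and SIRT1tg between 5.20 and 6.19, without overlap.

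Sox7, the remaining SoxF factor, did not separate the groups. It read 6.78, 6.98 and 7.14 in WT and 6.69, 7.04 and 7.44 in SIRT1tg, which is 0.11 higher on the log2 scale (95% interval -0.14 to 0.36, limma adjusted p = 0.708). SIRT1tg 3 held the highest and SIRT1tg 5 the lowest value of all 12 arrays. The dimmer Sox7 probe stood at 0.31 ± 0.11 (limma unadjusted p = 0.0127, adjusted p over all probes 0.195), so the probes of this gene differ in size though not in sign.

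Ets1, the detected ETS factor among these genes, read 7.56 to 8.39 in WT and 7.68 to 8.33 in SIRT1tg, a log2 fold change of 0.05 (95% interval -0.29 to 0.38). Lyl1, a basic helix-loop-helix factor related to Tal1 and shared with blood cells, stood at -0.18 (-0.45 to 0.10) and was detected on 6 WT and 4 SIRT1tg arrays, close to background. On the probes that represent the factors, Sox17 and Sox18 had an unadjusted p under 0.05, and Sox7 had one on its dimmer probe alone.

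**Figure D2:**
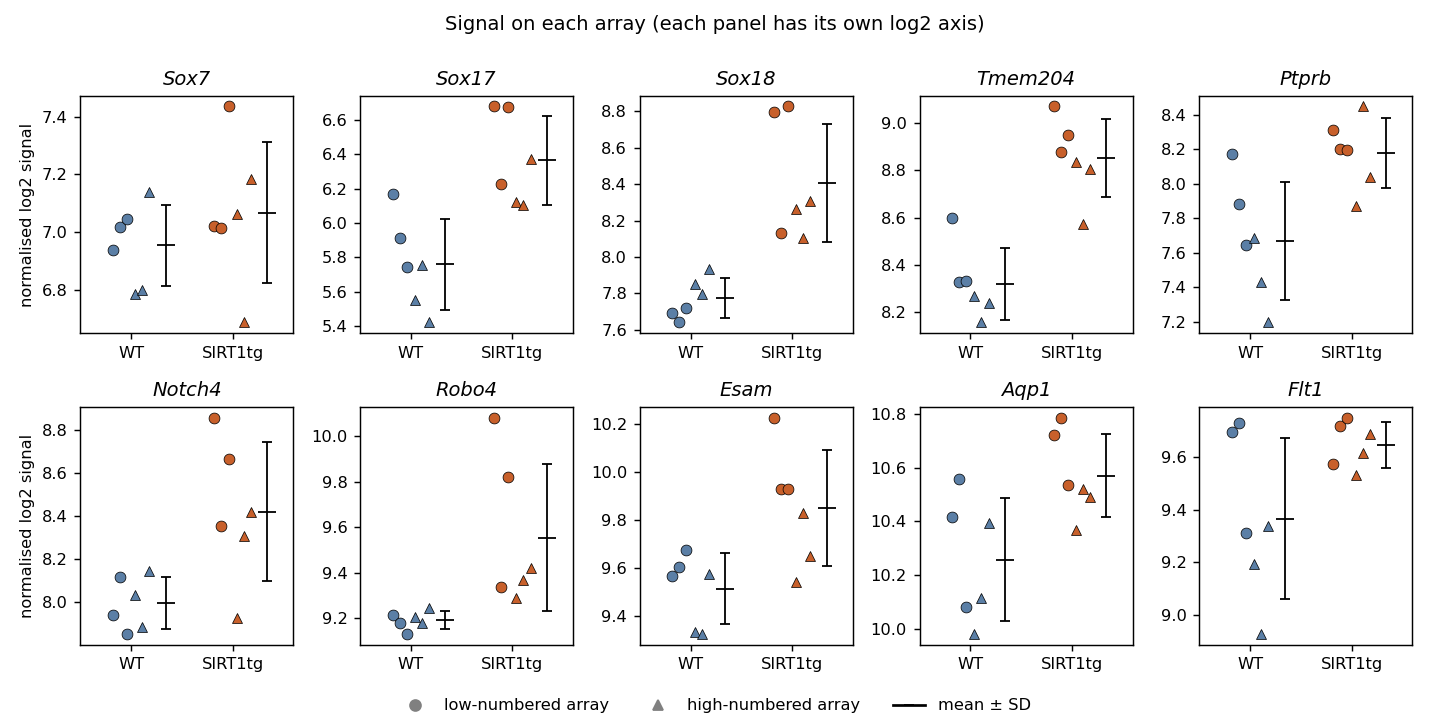
Normalised log2 signal of the SoxF factors and of the other genes with an unadjusted p under 0.05 on each of 12 arrays, with group means ± SD (n = 6 each) and circles and triangles for the low and high number range. Sox18 and Robo4 show no overlap between WT and SIRT1tg, whereas the groups overlap for Sox7.

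Among the receptor kinases and their phosphatase, Ptprb and Flt1 had an unadjusted p under 0.05, and Tie1 and Tek did not. Ptprb read 7.20, 7.67 and 8.17 in WT and 7.87, 8.20 and 8.45 in SIRT1tg, where 4 arrays lay above every WT array. Its log2 fold change was 0.51 ± 0.15 (SE), 1.42-fold (limma adjusted p = 0.127, exact permutation p = 0.0108, 6 against 6), with 0.34 in the low and 0.68 in the high range. WT 1 read highest of the WT arrays, and without it Ptprb passed with a limma adjusted p of 0.0351, as did 151 genes in all. This was the 1 of 12 fits with an array left out in which Ptprb passed, and its adjusted p there reached 0.222.

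Flt1, a VEGF receptor that also acts as a decoy, read 8.93, 9.33 and 9.73 in WT and lay closely between 9.53 and 9.75 in SIRT1tg. The group SD was 0.30 in WT and 0.09 in SIRT1tg, and WT 1 and 2 lay within the SIRT1tg arrays. The log2 fold change was 0.28 (95% interval 0.01 to 0.55; limma adjusted p = 0.305), at 0.10 in the low and 0.46 in the high range. A further Flt1 probe was detected on 2 of 12 arrays and was not tested. Tie1 stood at 0.11 (-0.10 to 0.32) and Tek, the receptor of angiopoietins, at -0.00 (-0.26 to 0.25).

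Among junction and adhesion proteins, Robo4 and Esam had an unadjusted p under 0.05 and Pecam1, Cdh5 and Icam2 did not. The intervals of Pecam1 and Cdh5 include the values of Robo4 and Esam, and the difference between these genes was not tested. Robo4, a guidance receptor that stabilises vessels, read 9.13, 9.19 and 9.24 in WT and 9.29, 9.40 and 10.08 in SIRT1tg. The groups did not overlap, as for Sox18, which makes 2 of the 28 genes (7.14%) where 1.32% of all genes had separate groups and 0.734% were higher in SIRT1tg. The WT arrays lay within a narrow band, and SIRT1tg 1 and 3 lay far above the other SIRT1tg arrays. The log2 fold change of Robo4 was 0.36 ± 0.13 (SE), 1.28-fold (limma adjusted p = 0.192, exact permutation p = 0.00216, 6 against 6), at 0.57 in the low and 0.15 in the high range. A further Robo4 probe was detected on 3 of 12 arrays and another on 1, so neither was tested and the difference rests on 1 probe.

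Esam, an adhesion molecule of tight junctions, read 9.33, 9.57 and 9.67 in WT and 9.54, 9.88 and 10.23 in SIRT1tg. Its log2 fold change was 0.34 ± 0.12 (SE; limma adjusted p = 0.182), with 0.41 and 0.26 in the low and high ranges. Pecam1 (CD31) stood at -0.02 with a wide 95% interval of -0.47 to 0.44, and its further probe at -0.00. Cdh5 stood at 0.13 (-0.22 to 0.48) and Icam2, an adhesion ligand for leukocytes, at 0.15 (-0.09 to 0.39).

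Notch4, the Notch receptor largely restricted to endothelium, read 7.85, 7.99 and 8.15 in WT and 7.92, 8.39 and 8.86 in SIRT1tg. Only SIRT1tg 4 lay within the WT arrays. The log2 fold change was 0.43 ± 0.13 (SE), 1.34-fold (limma adjusted p = 0.149, exact permutation p = 0.0130, 6 against 6), at 0.66 in the low and 0.20 in the high range. A further Notch4 probe was detected on 3 of 12 arrays and was not tested. The receptors of the transforming growth factor family stood at 0.20 for Eng, endoglin (-0.17 to 0.57), and 0.10 for Acvrl1 (ALK1), which was detected on 3 WT and 4 SIRT1tg arrays.

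Tmem204, a membrane protein of endothelial junctions, had the smallest p of the 28 genes. It read 8.16, 8.30 and 8.60 in WT and 8.57, 8.86 and 9.07 in SIRT1tg. WT 1 and SIRT1tg 5 met at the border, and the other arrays were separate. The log2 fold change was 0.53 ± 0.10 (SE), 1.45-fold (limma adjusted p = 0.0541, exact permutation p = 0.00433, 6 against 6). It was 0.55 in the low and 0.52 in the high range, with an adjusted p of 0.0242 with the range as a block. Tmem204 passed in 8 of 17 other settings besides leaving out an array, among them another background correction, array weights and the muscle signal as a covariate.

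Aqp1, a water channel of capillaries and red cells, read 9.98, 10.26 and 10.56 in WT and 10.37, 10.53 and 10.78 in SIRT1tg. Its log2 fold change was 0.31 (95% interval 0.07 to 0.55; limma adjusted p = 0.205), but the further probes stood at 0.04 and -0.01, so the difference rests on 1 of 3 probes. Nos3, the endothelial nitric oxide synthase, stood at -0.15 (-0.40 to 0.10), and its further probes at -0.24 and -0.21, with adjusted p over all probes of 0.352 and 0.423. Ramp2, a partner of the adrenomedullin receptor, stood at 0.18 and Rasip1, a regulator of vessel tube formation, at 0.18.

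The sialomucins, lectins and matrix proteins of vessels differed little. Emcn (endomucin) stood at 0.20 (95% interval -0.13 to 0.52), Plvap, a protein of endothelial fenestrae, at 0.12 (-0.15 to 0.40), and the matrix glycoprotein Mmrn2 at 0.04 (-0.19 to 0.28). Cd34 stood at 0.03 (-0.30 to 0.36). Egfl7, a secreted endothelial protein whose gene holds the microRNA miR-126, stood at -0.04 (-0.32 to 0.23) and at 0.12 on its further probe. Lyve1, a marker of lymphatic endothelium and of some macrophages, stood at -0.07 (-0.65 to 0.50), with WT 4 at 6.34 and the other WT arrays at or below 5.29. Intervals of this width, with a median span of 0.55 over the 28 genes, do not show that these genes were equal in the groups.

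The 3 SoxF factors were set beside the 19 tested surface markers, the comparison named in the choice of genes. The transcription factors of the rule that could be tested were Sox7, Sox17 and Sox18, since Erg and Tal1 were below background. Their median log2 fold change was 0.61, against 0.18 for the surface markers, of which 16 of 19 were higher. Without background correction the medians were 0.27 and 0.14. Without a filter, with Erg and Tal1 included, they were 0.11 and 0.12, so the order of the medians turned. With Ets1 and Lyl1 added the median of the factors was 0.11, which is the value of Sox7. The median of 0.61 over the 3 SoxF factors is the value of Sox17, with Sox18 at 0.63 and Sox7 at 0.11. The mean of the SoxF factors, centred over the 12 arrays, lay between -0.32 and -0.12 in WT and between -0.09 and 0.59 in SIRT1tg. That of the surface markers lay between -0.31 and 0.08 in WT and between -0.07 and 0.27 in SIRT1tg, with overlap. The difference of the means, SoxF minus surface markers, was -0.12 ± 0.11 on the WT arrays and 0.12 ± 0.19 on the SIRT1tg arrays (mean ± SD, n = 6). SIRT1tg 2 and 5, at -0.08 and -0.13, lay within the WT arrays, which ran from -0.24 to 0.04. With the mean surface marker signal as a covariate, a setting chosen after the data were examined, Sox18 stood at 0.53 (limma adjusted p = 0.149), Sox17 at 0.33 (0.237) and Sox7 at 0.03 (0.938).

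**Figure D3:**
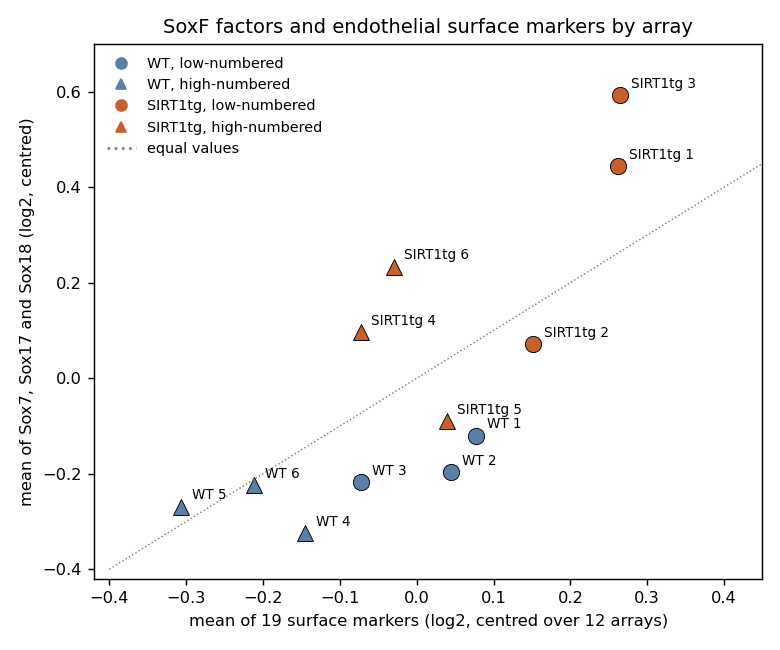
Mean log2 signal of Sox7, Sox17 and Sox18 (vertical) against the mean of the 19 tested surface markers (horizontal), both centred over 12 arrays, 1 point per array; the dotted line marks equal values. SIRT1tg 1 and 3 lie highest on both axes, and the 6 WT arrays lie at or below -0.12 on the vertical axis.

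Some arrays read high or low for many of the endothelial genes. SIRT1tg 1 and 3 held the highest values of Sox17, Sox18, Robo4 and Notch4, and WT 5 read lowest of all arrays for Flt1, Eng, Emcn and Pecam1. After subtracting each group's mean, the median Pearson r between pairs of the 28 genes was 0.38 over 378 pairs, while that over all pairs of genes tested was 0.00. With the mean of each number range within a group subtracted instead, a setting chosen after the data were examined, it was 0.15. All genes of an array share its RNA and its normalisation, so these values are a description. The median SD within groups was 0.23 for the 28 genes and 0.21 for all genes.

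**Figure D4:**
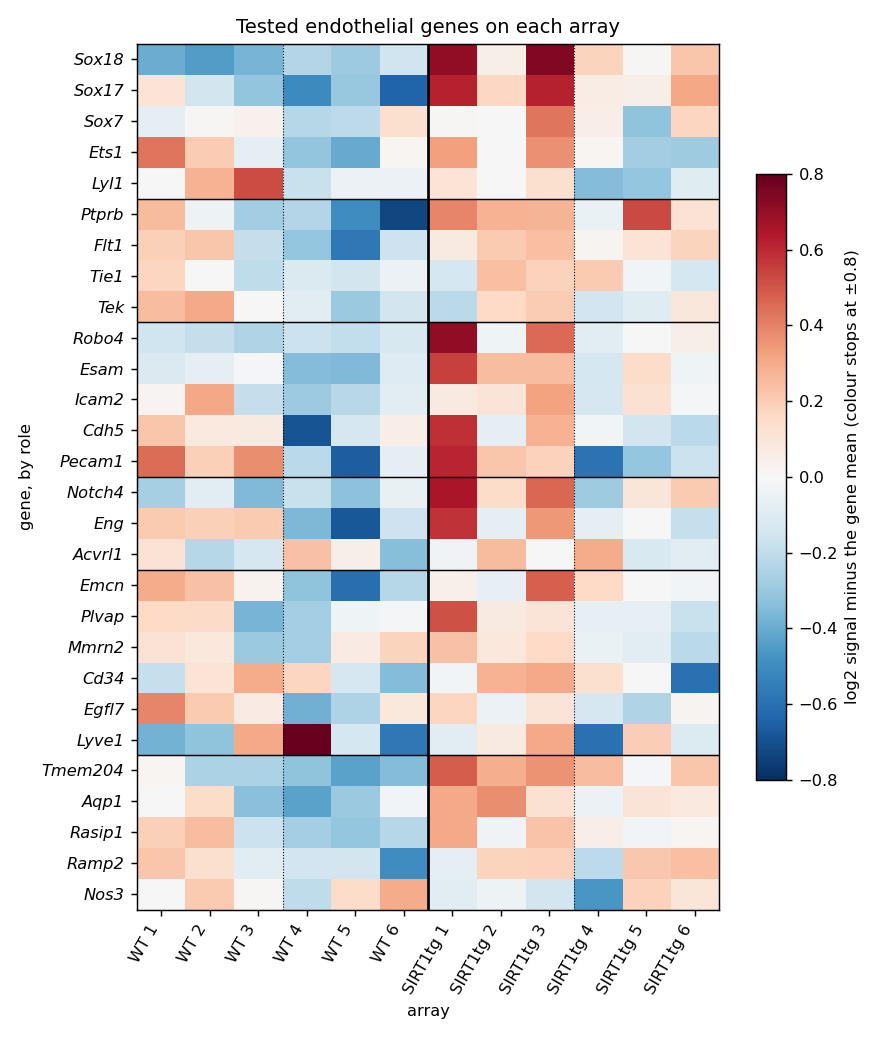
Log2 signal of the 28 tested endothelial genes on 12 arrays, minus each gene's mean, with red above and blue below it; horizontal lines separate the roles and dotted lines the number ranges. SIRT1tg 1 and 3 are red for most genes, WT 4 and WT 5 are blue for most, and Sox18 changes colour at the border between the genotypes.

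Most endothelial genes read lower on the arrays with high column numbers, and few of them passed the test. Of the 28 genes, 25 read lower on the high-numbered arrays with genotype in the same model, with a median log2 difference of -0.22 (high minus low) against -0.02 over all genes, of which 53.8% read lower. Pecam1, at -0.67 (limma adjusted p = 0.0115), and Eng, at -0.49 (0.0339), fell, which is 7.14% of the 28, where 5.03% of all genes passed in either direction. With 1 array left out in turn, Pecam1 passed in 12 of 12 fits and Eng in 3 of 12, with adjusted p up to 0.0804. Ets1 stood at -0.42 (0.0506) and Sox17 at -0.35 (0.0788), whereas Sox18 stood at -0.09. What the numbers stand for is not given, and each range holds both genotypes equally. Of the 28 genes, 19 were higher in SIRT1tg in both ranges, where 28.2% of all genes were. The 9 genes with an unadjusted p under 0.05 are among them, which their choice over the same arrays largely fixes. The interaction of genotype and range passed for 0 of the 28 genes in limma (0.0124% of all genes passed), and Sox18 was the 1 gene with an unadjusted p under 0.05 there, where 7.38% of all genes had one.

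**Figure D5:**
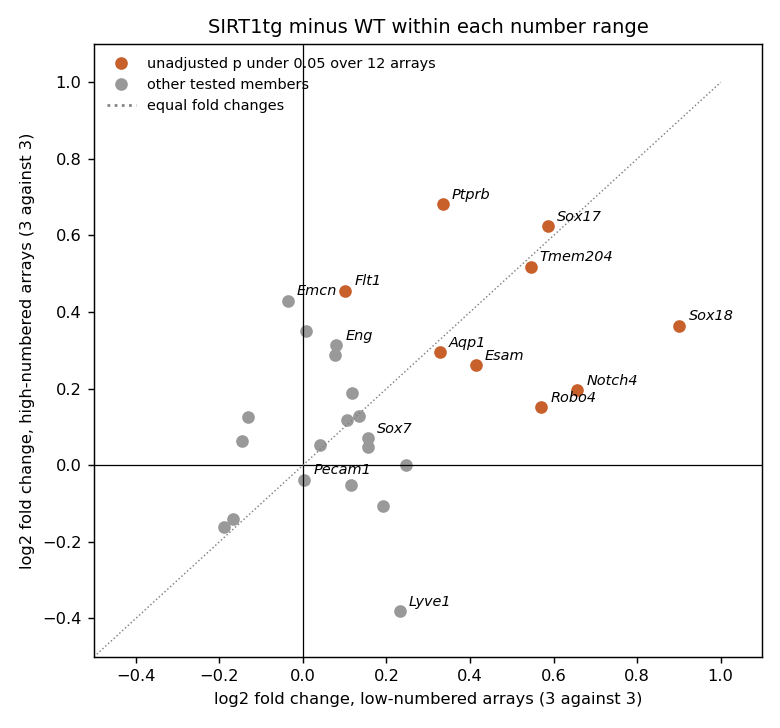
Log2 fold change (SIRT1tg minus WT) within the low-numbered arrays (horizontal) and the high-numbered arrays (vertical), 3 against 3 in each, for the 28 tested genes; orange points had an unadjusted p under 0.05 over 12 arrays. The orange points lie above 0 on both axes, with Sox17 and Tmem204 near the line of equal values and Sox18, Notch4 and Robo4 larger on the low-numbered arrays.

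Further genes of the vascular pathways were taken from lists chosen with earlier results of these arrays known. Over these lists 0 genes passed in either direction in limma, and with the number range as a block 1 of 48 tested genes rose (2.08%, where 0.672% of all genes did). At an unadjusted p under 0.05 there were 11 of the 48 (22.9%, where 15.2% of all genes were), 7 higher and 4 lower. The gene that rose was Gata2, a zinc finger factor of endothelial and blood cells (log2 fold change 0.58 ± 0.13, adjusted p = 0.0628, and 0.0341 with the block). Among 14 tested other endothelial factors, 9 were higher, with a median of 0.06. The flow-responsive factor Klf4 stood at 0.79 (adjusted p = 0.182) and Mef2c, a MADS box factor, at -0.30 (0.227). The vascular ligands had a median of -0.04 over 8 genes. Vegfd, a ligand of Flt4, was detected on 6 WT and 2 SIRT1tg arrays, so that it was tested through the WT arrays and its SIRT1tg level lies mostly at background. It is 1 of the 4 lower genes. Vegfa stood at 0.36 (0.213) and Bmp4 at 0.27 (0.447). For Vegfa the log2 fold change was 0.03 in the low and 0.70 in the high number range. The interaction of genotype and range for Vegfa had an unadjusted p of 0.00385 and an adjusted p of 0.578 in limma.

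In the Notch pathway, with a median of 0.05 over 6 genes, Notch1 stood at 0.59 (limma adjusted p = 0.124), its target Heyl at 0.39 (0.265) and Hes1 at 0.09 (0.817). Genes of capillary lipid handling had a median of 0.06 over 8 genes, led by the caveolar protein Cav1 at 0.34 (0.217) and Gpihbp1, which carries lipoprotein lipase to the capillary wall, at 0.29 (0.341). Fabp5 stood at 0.18 (0.796). The co-receptors and modulators had a median of 0.04 over 5 genes, with Angptl4, an inhibitor of lipoprotein lipase, at -0.18 (0.418), the neuropilin Nrp2 at 0.11 (0.775) and Spry4 at 0.07 (0.844). Genes of endothelial activation and sprouting had a median of -0.07 over 7 genes. The anticoagulant receptor thrombomodulin, Thbd, stood at 0.52 (0.124), the apelin receptor Aplnr at -0.37 (0.276) and P-selectin, Selp, at -0.26 (0.314).

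Markers for other cells of the tissue were also tested gene by gene, and each list is described and was not tested as a whole. The 6 tested fibroblast markers were all lower in SIRT1tg, with a median of -0.50, and their mean lay between -0.07 and 0.82 in WT and between -0.38 and -0.19 in SIRT1tg, while the fibroblast marker Postn was detected on 0 arrays. Of 7 tested macrophage markers 6 were lower (median -0.69; means from -0.44 to 1.22 in WT and from -0.66 to 0.34 in SIRT1tg). The 4 tested lymphatic markers had a median of -0.22 and means from -0.65 to 0.87 and from -0.46 to 0.29, and their defining factor Prox1 was detected on 0 arrays. The 10 tested markers of pericytes and smooth muscle, the cells around vessels, had a median of 0.07, with means from -0.26 to 0.22 in WT and from -0.11 to 0.13 in SIRT1tg. The 8 brown adipocyte markers had a median of 0.02. The 13 tested skeletal muscle markers had a median of -1.34, with means from -1.82 to 2.56 in WT and from -1.82 to 2.92 in SIRT1tg. The 3 T cell, 2 red cell and 2 mast cell markers that were tested had medians of 0.00, 0.12 and -0.15. In limma 0 of the 59 tested marker genes passed, a count that also holds the endothelial markers Cdh5, Pecam1, Tek and Tie1. At an unadjusted p under 0.05, 10 of the 59 (16.9%) were lower, where 7.63% of all genes were. They were 5 fibroblast markers, 4 macrophage markers and Pdpn of the lymphatic list. Myh11, a smooth muscle myosin, was the 1 marker higher at that level (log2 fold change 0.38). With the muscle signal as a covariate Sox18 stood at 0.57 and Sox17 at 0.59. The part of the other lists in the endothelial differences was not tested.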

How the data were processed

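Total RNA of 12 samples of brown adipose tissue was measured on Illumina arrays after biotin labelling, as the labels' protocols say. GenomeStudio is named in the submitters' processing notes, without a version. The deposited signals are intensity values, mean bead signals on a linear scale that were not normalised, and the deposited detection p-value compares each probe with the control beads, per the file headers. A processed table of the authors holds deposited intensity values on a linear scale, background-subtracted (26.1% at or below 0), not centred, and equal at the upper quartile (57.7). Its method is not stated. Its column medians were 5.757, 5.743, 5.735, 5.752, 5.752 and 5.746 in WT (replicates 1 to 6), and SIRT1tg had 5.738, 5.745, 5.733, 5.705, 5.759 and 5.732 in the same order.

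Signals were background-corrected through the detection p-values with an offset of 16 and quantile-normalised (nec and normalizeBetweenArrays of limma 3.58.1 in R 4.3.3), on the log2 scale. Probes with 1 gene symbol in the platform annotation (23978 of 25697) were kept where 6 or more of the 12 arrays had a detection p below 0.05. The probe with the highest mean signal represented each gene. Groups were compared with lmFit and eBayes without covariates. The Benjamini-Hochberg adjustment ran over 8035 genes. Probes other than those chosen were tested among all 10771 named detected probes. Folds of dim genes are compressed by background and offset, and probes of different genes were not compared in level. Every tested member, those with an unadjusted p under 0.05, those whose groups did not overlap and the SoxF factors were named by rule, and up to 3 genes with the smallest p of each further list. Gene lists and members were chosen with earlier results of these data known. In simulated data from these 8035 genes, with genes simulated independently, 60.6% of genes changed by 0.5 (log2) were recovered. Of those changed by 1, 98.4% were recovered, and 3.73% of calls were false. More genes were changed there than the 12 that passed here, which makes the adjustment more lenient. No difference between number ranges was simulated either, so these shares are not the power reached in these data. Alternatives are described at the end.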

Additional observations from a re-analysis of the deposited data

Results flagged for a closer look

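Among 60 checks of single arrays against the rest of their group, 1 stood apart, where chance gives about 1 in 20. Cd34 read 4.97 on SIRT1tg 6, while the next SIRT1tg array read 5.54 and the highest 5.87.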

How the results depend on the processing

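The median log2 fold change of the 28 genes stayed above 0 in every setting run, from 0.06 with median scaling, where the median of all genes was -0.10, to 0.20 when single arrays were left out. The surface markers ran from 0.07 to 0.24. The number of the 28 genes that passed was 0 as reported and 1 (Tmem204) with the normexp background, without background correction, with detection on 12 arrays, with the mean of a gene's probes, with the robust trended prior and with the muscle covariate. It was 2 (Tmem204 and Sox18) with array weights and 3 with the number range as a block. Leaving out 1 array gave 0 to 4, the 4 without WT 1 (Tmem204, Sox17, Sox18 and Ptprb), when 151 genes in all passed. The median of the factors, the SoxF factors unless said otherwise, ran from 0.54 to 0.66 without single arrays. It was 0.37 with normexp, 0.27 without background correction and 0.36 on the high-numbered arrays. With Erg and Tal1 included, without a filter, it was 0.11, and with Ets1 and Lyl1 added it was also 0.11. The surface markers stood at 0.16, 0.14, 0.19 and 0.12 in the first 4 of these settings. The number of the 28 genes that differed between the number ranges was 2 as reported. It was 3 in 4 other settings, 6 without SIRT1tg 2, and 1 without any of WT 2, 3, 4 and 5 or SIRT1tg 1, 3, 5 and 6. Sox7 and the 9 genes with an unadjusted p under 0.05 kept their sign in every setting run. Correlations of same-numbered deviations ran from -0.14 to 0.50, and for 5 of 12 samples the same-numbered one matched best. These values do not settle whether the replicate numbers pair the samples. With the replicate block on the processed values 0 of the 28 genes passed, with Sox18 at 0.63 (adjusted p = 0.0784) and Sox17 at 0.60 (0.0708). Signal close to background limits the dim genes. The cause of these changes was not tested.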
